A study of Mus musculus with 6 samples.

Results

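Pyroptosis and necroptosis are forms of cell death in which the plasma membrane is opened and the contents of the cell are released. Transcripts of 10 genes of these pathways were followed in kidneys of diabetic mice: Gsdmd, Casp1, Casp4, Casp8, Nlrp3, Pycard, Ripk1, Ripk3, Mlkl and Zbp1. They were chosen by name, and each of the 10 symbols was found once among the 55401 genes of the deposited tables. The study compared 3 kidney libraries of wild-type mice (WT/Sed) with 3 of mice of the genotype called Cdo1KKO (Cdo1KKO/Sed), all of which had type 1 diabetes brought about by streptozotocin, a toxin that enters pancreatic beta cells. Its stated aim was to find the signalling that depends on Cdo1 of the renal tubule, where Cdo1 encodes cysteine dioxygenase. The labels give a genotype of WT or KO and spell out neither Sed nor the construction of the Cdo1KKO allele, the cells in which it acts, or the ages and sexes of the animals. Each library is labelled as a biological replicate.

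In pyroptosis, a sensor such as NLRP3 gathers the adaptor ASC (encoded by Pycard) and caspase-1 into an inflammasome, or caspase-11 (encoded by Casp4 in mice) binds bacterial lipopolysaccharide directly. Either caspase then cuts gasdermin D, whose freed amino-terminal part forms pores in the plasma membrane, and caspase-1 also matures the cytokines IL-1 beta and IL-18. In necroptosis, RIPK1 or the nucleic acid sensor ZBP1 activates the kinase RIPK3, which phosphorylates MLKL, and MLKL then breaches the membrane; caspase-8 cleaves RIPK1 and RIPK3 and holds this route back. Both routes are controlled largely at the level of proteins, by cleavage, phosphorylation and assembly, which RNA counts do not show.

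Total counts ran from 28145261 to 43872779 per library. Cdo1 itself stood at 181, 191 and 180 CPM in WT/Sed against 109, 118 and 103 CPM in Cdo1KKO/Sed. It was therefore lower but still transcribed in the libraries labelled Cdo1KKO/Sed (log2 fold change -0.74 ± 0.06, adjusted p = 4.64e-06 by edgeR). All 10 markers of the proximal tubule were lower by similar amounts, with log2 fold changes of -0.93 to -0.46 and a median of -0.70. The part of that shift in the lower level of Cdo1 was not tested. CPM here are counts relative to library sizes scaled by TMM. Values after ± are SD over 3 libraries for levels and an approximate SE for log2 fold changes (Cdo1KKO/Sed over WT/Sed). The words rose and fell are kept for genes with an adjusted p under 0.05 (edgeR quasi-likelihood test, Benjamini-Hochberg over all 17194 genes tested). Nothing in the labels ties libraries to litters or days, so p-values measure the spread between these 6 libraries. Markers of the proximal tubule, such as Lrp2 and Slc34a1, were abundant in every library, as was Umod of the thick ascending limb (31305 counts or more), so the tissue label holds. Fewer cells of a type and less RNA per cell cannot be told apart in whole kidney.

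Of the 10 genes, 9 rose in Cdo1KKO/Sed and 0 fell, and Ripk1 did not pass the test. Over all genes tested, 18.9% rose and 18.5% fell, 37.4% in either direction. With edgeR, DESeq2 and limma-voom alike, 0 of the 10 were lower at an unadjusted p under 0.05. In 9 of the 10, every Cdo1KKO/Sed library lay above every WT/Sed library, against 25.7% of all genes tested (50.3% were apart in either direction). At least 2-fold rises were found for 8, against 6.76%, and rises of at least 8-fold for Zbp1 and Mlkl, against 1.32%. The median log2 fold change of the 10 was 1.48, beside 0.01 over all genes tested. Zbp1, Casp4 and Nlrp3 were below the count filter's minimum of 0.253 CPM in at least 1 WT/Sed library and entered the test through Cdo1KKO/Sed, while the other 7 reached it in all 6 libraries. For each of the 9, exact 2-sided permutation of CPM gave p = 0.1, which is the lower limit of a design with 3 libraries a group.

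**Figure D1:**
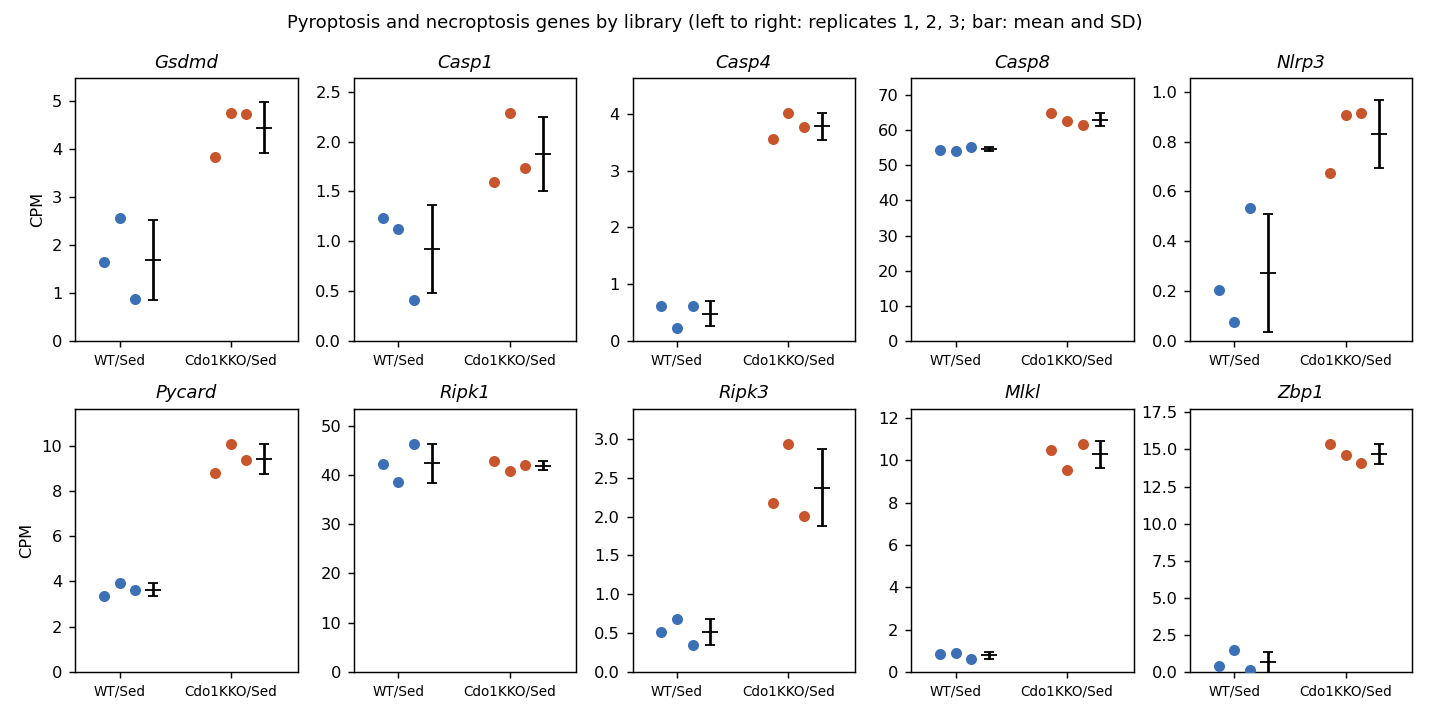
CPM of each of the 10 genes (vertical axes, linear, starting at 0) in the 3 WT/Sed libraries (blue) and the 3 Cdo1KKO/Sed libraries (orange), with replicates 1, 2 and 3 from left to right and the mean and SD as a bar, which for Zbp1 in WT/Sed runs below 0 and ends at the axis. The groups are apart in every panel except Ripk1, and the gap is widest relative to the WT/Sed level for Zbp1 and Mlkl.

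Among the genes of necroptosis the changes ran from none detected to the largest of the 10. Zbp1 (ENSMUSG00000027514.14, chromosome 2, 173206612 to 173218923, minus strand, GRCm38, GENCODE M21) held 0.360, 1.46 and 0.0973 CPM in WT/Sed, from 14, 39 and 4 counts, and 15.4, 14.6 and 14.1 CPM in Cdo1KKO/Sed. The WT/Sed libraries were uneven, replicate 2 being the highest, and all 3 were far below the Cdo1KKO/Sed libraries, which were close together. The log2 fold change was 4.72 ± 0.63 (adjusted p = 0.00289); it was 6.01 without WT/Sed replicate 2 and 4.14 without WT/Sed replicate 3.

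Mlkl, the executioner of necroptosis (ENSMUSG00000012519.14, chromosome 8, 111311797 to 111338177, minus strand), stood at 0.848, 0.900 and 0.584 CPM in WT/Sed against 10.5, 9.56 and 10.8 CPM in Cdo1KKO/Sed. The coefficient of variation was 21.7% in WT/Sed and 6.23% in Cdo1KKO/Sed. The log2 fold change of 3.74 ± 0.18 (adjusted p = 9.85e-08) had a small SE relative to its size. It stayed between 3.55 and 3.84 when any 1 library was left out. Ripk3, the kinase that phosphorylates MLKL (ENSMUSG00000022221.14, chromosome 14, 55784995 to 55788865, minus strand), had 0.514, 0.675 and 0.341 CPM in WT/Sed against 2.17, 2.94 and 2.01 CPM in Cdo1KKO/Sed. It rose by 2.25 ± 0.32 on the log2 scale (adjusted p = 2.18e-04), from 52 counts over the WT/Sed libraries to 280 over the Cdo1KKO/Sed libraries.

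Ripk1 and Casp8, the genes that lie upstream of Ripk3, were the most abundant of the 10 in CPM and moved least. Ripk1 (ENSMUSG00000021408.15, chromosome 13, 34002363 to 34037147, plus strand) had 42.2, 38.5 and 46.4 CPM in WT/Sed against 42.8, 40.9 and 42.1 CPM in Cdo1KKO/Sed, so that the groups overlapped. Its log2 fold change was -0.02 ± 0.07 (adjusted p = 0.870), with a 95% interval from the approximate SE of -0.16 to 0.12. The sign turned with library size as the only scaling (0.15, adjusted p = 0.113), with TPM values (0.22 with 1 added, adjusted p = 0.0643) and without WT/Sed replicate 3 (0.05, adjusted p = 0.612). On the TPM scale the Ripk1 libraries did not overlap, at 11.5, 10.3 and 12.8 in WT/Sed against 14, 13.1 and 13.7 in Cdo1KKO/Sed, and on the same scale with 1 added all genes tested had a median of 0.20. Its first 432 bases lie opposite the start of Serpinb6a, which had 631 to 1512 counts, and whether counting used strand is not given here.

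Casp8 (ENSMUSG00000026029.14, chromosome 1, 58795374 to 58847503, plus strand) stood at 54.3, 54.2 and 55.2 CPM in WT/Sed against 65.0, 62.7 and 61.4 CPM in Cdo1KKO/Sed. The groups did not overlap, and the difference was small, with a log2 fold change of 0.21 ± 0.05 (adjusted p = 0.00947). It missed the threshold when Cdo1KKO/Sed replicate 1 was left out (0.19, adjusted p = 0.0563), and on the TPM scale with 1 added the difference was 0.45.

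Among the genes of pyroptosis, the caspase of the lipopolysaccharide route showed the largest rise. Casp4 (ENSMUSG00000033538.13, chromosome 9, 5308828 to 5336783, plus strand) had 0.617, 0.225 and 0.608 CPM in WT/Sed against 3.55, 4.02 and 3.77 CPM in Cdo1KKO/Sed. The log2 fold change was 2.90 ± 0.30 (adjusted p = 2.39e-05), and it stayed between 2.62 and 3.09 when any 1 library was left out. Casp1 (ENSMUSG00000025888.6, chromosome 9, 5298517 to 5307265, plus strand) ends 1562 bases before Casp4 begins. Its levels were 1.23, 1.12 and 0.414 CPM in WT/Sed against 1.59, 2.29 and 1.74 CPM in Cdo1KKO/Sed, which came close without overlapping. Casp1 rose by 1.04 ± 0.37 (adjusted p = 0.0469), and missed the threshold when WT/Sed replicate 3 (0.66, adjusted p = 0.0805) or any Cdo1KKO/Sed library was left out (adjusted p 0.0841 to 0.176).

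Gsdmd, the pore-forming substrate of both caspases (ENSMUSG00000022575.5, chromosome 15, 75862327 to 75867408, plus strand), had 1.64, 2.55 and 0.876 CPM in WT/Sed against 3.83, 4.75 and 4.73 CPM in Cdo1KKO/Sed. WT/Sed replicate 3 was low and replicate 2 high, and all 3 stayed below the lowest Cdo1KKO/Sed library. The log2 fold change of 1.43 ± 0.31 (adjusted p = 0.00510) passed the test without any 1 library, at 1.11 to 1.83. Pycard (ENSMUSG00000030793.4, chromosome 7, 127989708 to 127993867, minus strand) was even within groups, at 3.34, 3.94 and 3.62 CPM in WT/Sed against 8.79, 10.1 and 9.35 CPM in Cdo1KKO/Sed. It rose by 1.38 ± 0.13 (adjusted p = 1.34e-05); 599 of its bases overlap the predicted gene Gm45205 on the other strand, which held at most 20 counts in a library.

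Nlrp3 (ENSMUSG00000032691.14, chromosome 11, 59541568 to 59566956, plus strand) was the least abundant of the 10 in both groups. It had 8, 2 and 22 counts in WT/Sed (0.206, 0.0750 and 0.535 CPM) and 22, 36 and 42 counts in Cdo1KKO/Sed (0.674, 0.905 and 0.916 CPM). The log2 fold change of 1.53 ± 0.53 passed the test narrowly (adjusted p = 0.0413). It became 2.45 without WT/Sed replicate 3, and it missed the threshold on leaving out WT/Sed replicate 1 (adjusted p = 0.147) or 2 (adjusted p = 0.0609), or each Cdo1KKO/Sed library in turn (adjusted p 0.0769 to 0.134).

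**Figure D2:**
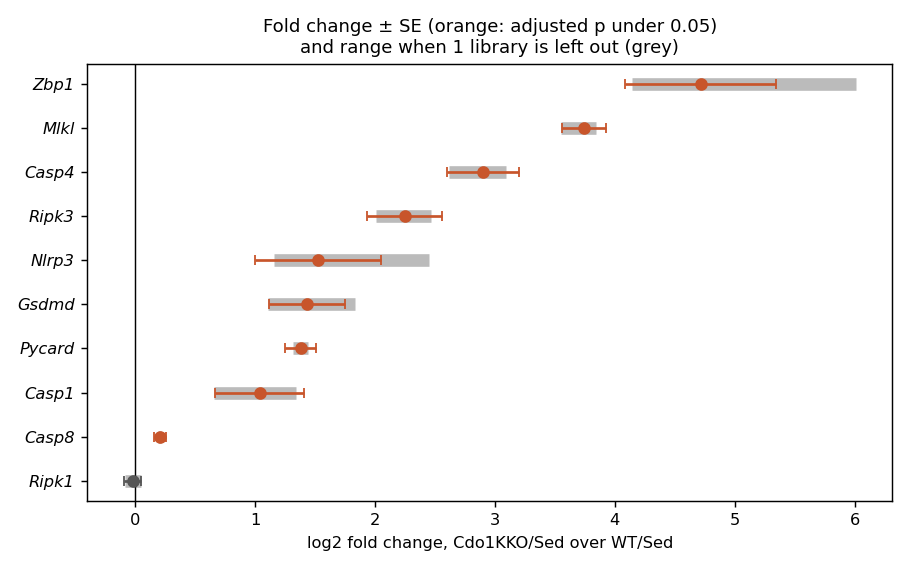
Log2 fold change of Cdo1KKO/Sed over WT/Sed (horizontal axis) for each of the 10 genes, with the approximate SE as whiskers, orange where the adjusted p was under 0.05, and grey bars for the range of values when 1 library was left out. Zbp1 and Nlrp3 have the widest grey bars, 4.14 to 6.01 and 1.16 to 2.45, and Ripk1 lies on 0.

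The sequence upstream of the genes is shown for 3 that rose more than 4-fold, Casp4, Mlkl and Ripk3, since genes of both routes rose together. RefSeq promoter windows (GRCm38.p6) were found for 8 of the 10 genes, in 11 windows, and not for Gsdmd or Zbp1. The 250 bases before each start site were searched on both strands for a pair of interferon-response half-sites (GAAA, any 2 bases, GAAA), the STAT-binding GAS motif (TTCNNNGAA) and the NF-kappaB motif. Windows run 5′ to 3′ along the gene, on the plus strand for Casp4 (chr9:5308599-5308848) and the minus strand for Mlkl (chr8:111338206-111338455) and Ripk3 (chr14:55788858-55789107), and capitals mark NF-kappaB matches.
Casp4: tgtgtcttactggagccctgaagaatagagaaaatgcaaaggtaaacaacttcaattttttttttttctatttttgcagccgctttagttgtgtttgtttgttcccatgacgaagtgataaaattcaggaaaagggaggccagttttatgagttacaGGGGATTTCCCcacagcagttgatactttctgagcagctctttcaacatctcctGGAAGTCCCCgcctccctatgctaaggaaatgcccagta
Mlkl: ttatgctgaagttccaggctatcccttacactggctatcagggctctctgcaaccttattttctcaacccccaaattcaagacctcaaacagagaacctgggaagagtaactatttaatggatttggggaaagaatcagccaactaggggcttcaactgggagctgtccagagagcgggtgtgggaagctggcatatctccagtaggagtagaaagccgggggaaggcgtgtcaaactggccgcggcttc
Ripk3: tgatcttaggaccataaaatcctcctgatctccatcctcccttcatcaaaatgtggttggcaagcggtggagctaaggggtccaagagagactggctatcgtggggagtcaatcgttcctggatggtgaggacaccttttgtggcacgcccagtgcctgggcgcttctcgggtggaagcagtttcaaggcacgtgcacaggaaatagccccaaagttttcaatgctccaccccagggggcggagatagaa
The Casp4 window held 3 NF-kappaB matches, GGGGATTTCC and GGGATTTCCC, which overlap each other at 93 to 84 and 92 to 83 bases before the start site, and GGAAGTCCCC at 39 to 30 bases. The Mlkl and Ripk3 windows held a match to none of the 3 motifs. Of the other genes, 1 of the Nlrp3 windows held 1 NF-kappaB match, and a Ripk1 window 511 bases inside the gene held 2 GAS matches. Over all 32851 RefSeq windows of this length, 7.25% held the NF-kappaB motif, 7.02% the GAS motif and 2.98% the half-site pair. A match describes letters in the window only.

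Levels of different genes were compared as TPM, which accounts for transcript length. In WT/Sed, Casp8 was the most abundant at 42.8 ± 0.970 TPM, followed by Ripk1 at 11.6 ± 1.22 TPM, and Pycard came next at 2.17 ± 0.163 TPM. Gsdmd stood at 1.61 ± 0.778, Mlkl at 0.765 ± 0.159, Casp1 at 0.667 ± 0.318, Ripk3 at 0.504 ± 0.159, Zbp1 at 0.408 ± 0.458, Casp4 at 0.297 ± 0.139 and Nlrp3 at 0.153 ± 0.135 TPM. From Pycard downward, each gene's libraries overlapped those of the next, so only Casp8 and Ripk1 stood apart from their neighbours.

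In Cdo1KKO/Sed the order changed below the first pair. Casp8 (58.9 ± 1.92 TPM) and Ripk1 (13.6 ± 0.469 TPM) were still the highest, and Mlkl (12.1 ± 0.894 TPM) and Zbp1 (11.3 ± 0.539 TPM) came next, with libraries that overlapped each other but not those of Ripk1. Pycard followed at 6.71 ± 0.410, Gsdmd at 5.05 ± 0.578, Ripk3 at 2.80 ± 0.552, Casp4 at 2.76 ± 0.144, Casp1 at 1.62 ± 0.295 and Nlrp3 at 0.554 ± 0.0892 TPM, of which only Ripk3 and Casp4 overlapped as neighbours. The summed TPM of the 10 genes was 60.5 to 61.7 in WT/Sed against 114 to 117 in Cdo1KKO/Sed. Mlkl made up 1.26% of that sum in WT/Sed against 10.5% in Cdo1KKO/Sed, and Zbp1 0.673% and 9.78%, while the share of Casp8 was 70.3% and 51.1%. In CPM the sum of the 10 genes differed less, at 104 to 109 in WT/Sed against 151 to 154 in Cdo1KKO/Sed. TPM were shifted upward in Cdo1KKO/Sed for genes in general, with a median log2 fold change of 0.20 (1 added), against 0.01 for counts.

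Ratios of 6 pairs of the genes were compared. The TPM ratio of Mlkl to Casp8 was 0.0179 ± 0.00406 in WT/Sed against 0.205 ± 0.0148 in Cdo1KKO/Sed. That of Ripk3 to Ripk1 was 0.0449 ± 0.0185 and 0.207 ± 0.0482. Mlkl over Ripk3 was 1.56 ± 0.203 and 4.46 ± 1.10, and Casp4 over Casp1 0.612 ± 0.561 and 1.73 ± 0.216. None of these 4 ratios overlapped between groups (exact 2-sided permutation test of the log2 ratios, p = 0.1 each and 0.15 adjusted over 6 ratios, the design allowing no p below 0.1). Within the inflammasome route the ratios overlapped: Casp1 over Pycard was 0.311 ± 0.158 and 0.240 ± 0.0295 (exact permutation p = 0.7), and Gsdmd over Casp1 2.51 ± 0.662 and 3.16 ± 0.419 (exact permutation p = 0.3). The ratios were chosen with the values of the genes known, so those that lay apart restate the changes of the single genes.

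The WT/Sed libraries differed among themselves more than the Cdo1KKO/Sed libraries did. The coefficient of variation of the CPM was larger in WT/Sed for 9 of the 10 genes, reaching 113% for Zbp1 (4.54% in Cdo1KKO/Sed) and 87.2% for Nlrp3 (16.5%), the exception being Casp8 (1.00% and 2.90%). Gsdmd, Ripk3, Mlkl and Zbp1 were highest in WT/Sed replicate 2 and lowest in replicate 3, whereas Nlrp3, Casp8 and Ripk1 had the opposite order. Some of these orders rest on small differences or few counts. Casp8 had 54.3, 54.2 and 55.2 CPM, Ripk3 20, 18 and 14 counts, and Mlkl 33, 24 and 24 counts in WT/Sed replicates 1, 2 and 3. The summed markers of macrophages and dendritic cells followed the first order, at 180, 257 and 121 CPM in WT/Sed replicates 1, 2 and 3, as did those of endothelium (157, 269 and 68.3 CPM) and podocytes (285, 407 and 204 CPM). The part of these cell types in the differences between WT/Sed libraries was not tested.

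**Figure D3:**
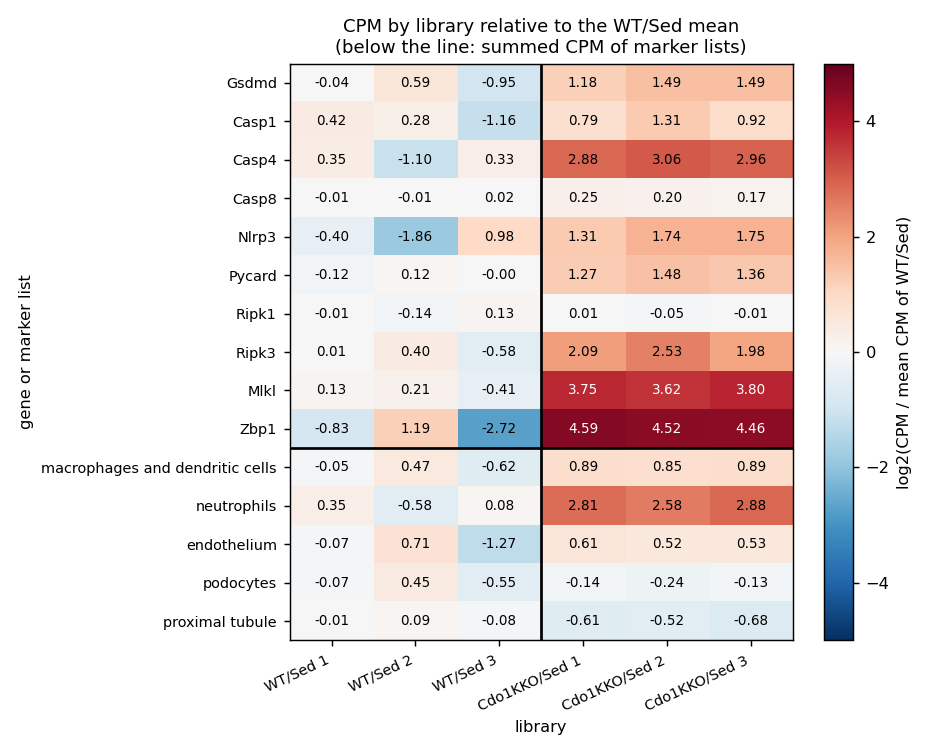
CPM in each library (columns) as log2 of its ratio to the WT/Sed mean, for the 10 genes (rows above the line) and for summed markers of 5 cell types (rows below it), with red for higher and blue for lower values. Zbp1 and the endothelial, macrophage, podocyte and proximal tubule markers are highest in WT/Sed replicate 2 and lowest in replicate 3 among WT/Sed libraries. The neutrophil markers are lowest in WT/Sed replicate 2. The Cdo1KKO/Sed columns are nearly alike.

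Several of the 10 genes are strongly expressed in white blood cells, and markers of those cells moved with the comparison. Of 14 markers of macrophages and dendritic cells, 9 rose and 1 fell, and their sum was 121 to 257 CPM in WT/Sed against 336 to 345 CPM in Cdo1KKO/Sed. The macrophage receptor Adgre1 rose from 1.35 ± 0.524 to 5.58 ± 0.165 CPM, while Csf1r fell from 46.3 ± 6.29 to 36.6 ± 0.555 CPM. Of 8 neutrophil markers, 6 were tested and 5 rose, with a sum of 1.65 to 3.14 CPM in WT/Sed against 14.8 to 18.2 CPM in Cdo1KKO/Sed, although the defining marker Ly6g had at most 2 counts in a library. The summed T and NK cell markers overlapped between groups (1.44 to 3.71 and 3.42 to 3.74 CPM), as did those of B and plasma cells (5.4 to 10.8 and 7.59 to 8.43 CPM); Cd3e had at most 22 counts in a library. Pecam1 did not pass the test, at 24.1 ± 13.6 CPM in WT/Sed against 38.3 ± 0.979 CPM in Cdo1KKO/Sed. All 7 red blood cell markers rose, and all 10 proximal tubule markers fell (45700 to 51300 CPM in WT/Sed against 30300 to 33600 CPM in Cdo1KKO/Sed). Of 5 markers of the thick ascending limb, 3 rose, Umod among them, and 1 fell. Of 6 markers of the collecting duct, 2 fell, among them Aqp2 (292.8 to 107.2 CPM), and 1 rose. The collecting duct marker that rose, Slc4a1, is also counted among the 7 red blood cell markers. The part of these shifts in the rises of the 10 genes was not tested.

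Around the 10 genes, 7 lists with 85 other genes of the same pathways were followed, of which 78 were tested. In these lists 41 genes rose and 5 fell, with a median log2 fold change of 0.58, against 18.9% and 18.5% of all genes tested. Some of the 41, among them Mefv, Gsdma, Il1rn, Tnf, Naip1 and Naip6, were below the count filter's minimum of 0.253 CPM in some or all WT/Sed libraries. Such genes entered the test through Cdo1KKO/Sed, so that a fall could hardly have been called for them. The 5 that fell became 8 without WT/Sed replicate 2, and 2 with library size as the only scaling or with TPM values. Genes named below without a place among the 4 smallest p of their list, namely Naip5, Naip6, Nek7, Gsdme, Il18, Cflar, Irf1, Irf2 and Irf3, were chosen after their values were seen.

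The other inflammasome sensors and adaptors went both ways, with 4 of 10 higher and 2 lower. The sensor Nlrc4 fell from 11.6 ± 0.825 to 6.60 ± 0.373 CPM (log2 fold change -0.81 ± 0.11), and Nlrp6, an epithelial sensor and by far the more abundant, from 143.5 ± 17.6 to 91.4 ± 5.99 CPM (-0.65 ± 0.09). Naip1, Naip5 and Naip6, whose human counterpart senses bacterial proteins for NLRC4, rose by 3.35 ± 0.55, 1.38 ± 0.41 and 2.82 ± 0.54; these are close copies of each other, so the split of counts between them is uncertain. Naip1 ranged from 2.76 to 3.92 when 1 library was left out, and the call for Naip5 ended without any 1 Cdo1KKO/Sed library (adjusted p 0.0548 to 0.0860). Mefv, which encodes the sensor pyrin, had 0 counts in WT/Sed against 0.548 ± 0.233 CPM in Cdo1KKO/Sed, at least 19.5-fold above the 3 counts over the WT/Sed group that a count of 0 allows. Nek7, a partner of NLRP3, stood at 159 ± 9.29 and 162 ± 3.40 CPM and did not pass the test, and with library size only it did (0.19, adjusted p = 0.0130).

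Of 8 tested genes for other gasdermins and for membrane rupture and repair, 3 rose and 1 fell. Gsdme, another gasdermin, was at 34.4 ± 3.60 CPM in WT/Sed against 35.3 ± 0.404 CPM in Cdo1KKO/Sed (log2 fold change 0.04 ± 0.08, adjusted p = 0.726; 0.26 on the TPM scale with 1 added, adjusted p = 0.0348). Gsdma had 0 counts in WT/Sed against 0.466 ± 0.145 CPM in Cdo1KKO/Sed, at least 16.6-fold higher. Ninj1, which ruptures the membrane after pore formation, fell from 62.1 ± 6.06 to 48.6 ± 3.25 CPM (-0.35 ± 0.08), a call that ended with library size only (adjusted p = 0.0805) and on the TPM scale. Chmp4b, of the ESCRT machinery that repairs the membrane, rose by 0.66 ± 0.06, and Serpinb1a, a serpin that restrains inflammatory caspases, by 1.24 ± 0.09.

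Of 11 cytokines released in pyroptosis and their receptors and antagonists, 6 rose. Il1b rose from 0.673 ± 0.183 to 3.70 ± 0.334 CPM, by 2.47 ± 0.26 on the log2 scale (adjusted p = 2.38e-05). Its receptor antagonist Il1rn went from 6 counts in WT/Sed, all in replicate 1, to 1.62 ± 0.490 CPM. Il18bp, the secreted inhibitor of IL-18, rose by 1.24 ± 0.17 and the alarmin Il33 by 1.05 ± 0.17. Il18 itself stood at 3.03 ± 0.824 and 4.11 ± 0.437 CPM and did not pass the test (0.45 ± 0.21, adjusted p = 0.124), though it did on leaving out WT/Sed replicate 2 (adjusted p = 0.0156) or under library size alone (adjusted p = 0.0393). Of the 6 other caspases 2 rose, among them Casp12, a relative of Casp4, by 1.56 ± 0.38.

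Of the death receptors, ligands and adaptors, 6 of 12 tested rose and 1 fell. The TNF receptor Tnfrsf1a rose from 33.3 ± 0.541 to 68.8 ± 0.809 CPM (log2 fold change 1.05 ± 0.05), with no overlap. Tnf went from 2 counts in each WT/Sed library to 22 to 36 counts in Cdo1KKO/Sed (3.56 ± 0.57). The nucleic acid receptor Tlr3 rose by 0.99 ± 0.10 and the adaptor Myd88 by 0.72 ± 0.07. Tradd, the adaptor that carries RIPK1 to the TNF receptor, fell by 0.49 on the log2 scale, and missed the threshold on leaving out WT/Sed replicate 1 (adjusted p = 0.0820) or Cdo1KKO/Sed replicate 2 or 3 (adjusted p 0.0653 and 0.0685), under library size alone (adjusted p = 0.0844) and on the TPM scale (-0.21 with 1 added, adjusted p = 0.122).

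Of 20 genes for ubiquitin, kinase and caspase-8 partners of RIPK1 and RIPK3, most of which restrain necroptosis, 11 rose and 1 fell. Cyld and Spata2, whose products remove ubiquitin chains from RIPK1 and favour necroptosis, are on the same list and did not pass the test. Birc3 (cIAP2), a ubiquitin ligase for RIPK1, rose from 8.36 ± 0.130 to 33.4 ± 0.889 CPM, and Tnfaip3 (A20), which edits its ubiquitin chains, from 2.93 ± 0.540 to 14.1 ± 0.784 CPM. The kinase Mapkapk2 (MK2), which phosphorylates RIPK1, rose by 0.78 ± 0.05, and Adar, which edits double-stranded RNA and keeps it from ZBP1, by 0.67 ± 0.07. Cflar, the partner of caspase-8 that lets it restrain necroptosis, rose by 0.24 ± 0.05, close to the 0.21 ± 0.05 of Casp8. Rbck1 (HOIL-1), of the linear ubiquitin ligase, fell by 0.31 on the log2 scale, a call that ended with library size only (adjusted p = 0.153) and on the TPM scale (adjusted p = 0.517 with 1 added).

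Of 11 transcription factors known to induce genes of the 2 routes, 9 rose. Irf7 rose from 3.80 ± 1.22 to 82.4 ± 0.919 CPM and Stat3 from 58.7 ± 2.99 to 153.7 ± 5.45 CPM. Irf1, known to induce Zbp1, rose by 2.35 ± 0.21, Nfkb1 by 0.94 ± 0.08 and Irf9 by 0.87 ± 0.07. Irf2 (0.06 ± 0.08), known to drive Gsdmd, and Irf3 (-0.16 ± 0.09) did not pass the test; Irf2 did with library size only (0.22, adjusted p = 0.0339), and Irf3 fell without WT/Sed replicate 3 (-0.25, adjusted p = 0.0130).

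**Figure D4:**
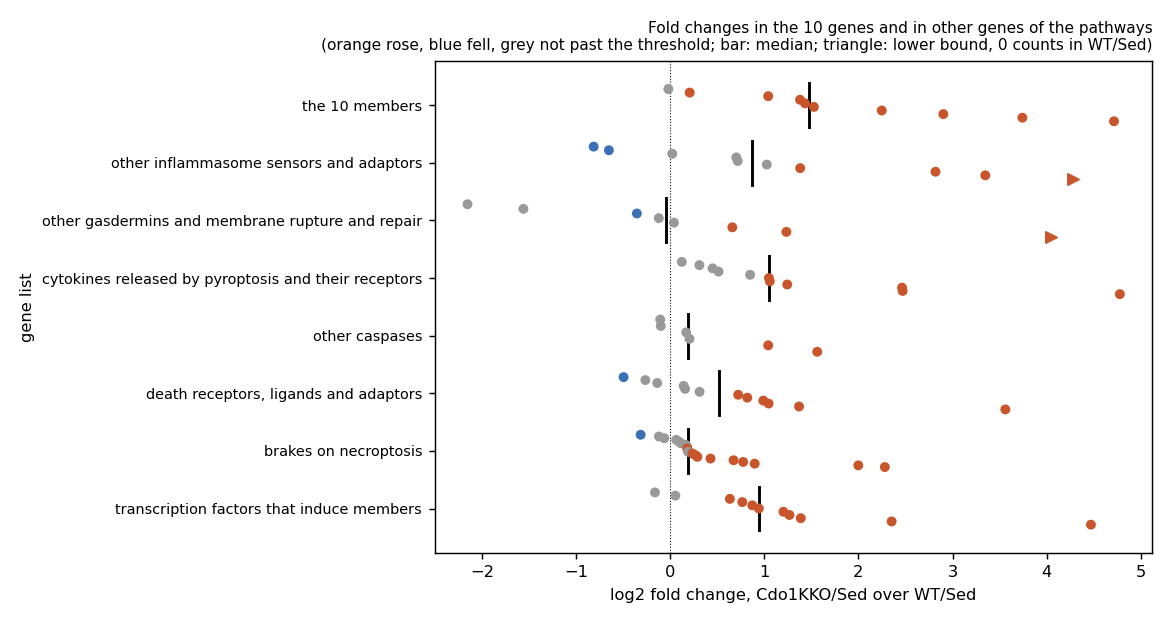
Log2 fold change of Cdo1KKO/Sed over WT/Sed (horizontal axis) for each tested gene of the 10 and of the 7 other lists (rows), orange for genes that rose, blue for those that fell and grey for those not past the threshold, with black bars for medians and triangles for the lower bounds of Mefv and Gsdma. The 5 blue points are Nlrc4, Nlrp6, Ninj1, Tradd and Rbck1.

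The 5 protein-coding genes whose log2 CPM followed the mean standardised level of the 10 genes most closely over the 6 libraries were F3, Sdc1, Smad1, Zc3hav1 and Acod1, with Pearson correlations of 0.9993 to 0.9998. The libraries form 2 separate groups, and 1270 of 14299 genes compared reached 0.95, so this measure mainly reflects the difference between groups.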

How the data were processed

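RNA of 6 mouse kidneys was measured by sequencing of poly(A)-selected RNA, 3 libraries per group. The authors deposited counts per gene (whole numbers) and TPM values, which account for gene length. Per the submitters' processing notes, fastp 0.23.4 and builds GRCm38 and mm10 were used; no source used here names the aligner, the counting tool or the strand setting. The deposited counts were analysed with edgeR 4.0.16 in R 4.3.3: filterByExpr, TMM, and a robust quasi-likelihood F test of genotype, with Benjamini-Hochberg adjustment. The SE is the absolute log2 fold change divided by the square root of F. The 95% interval uses this SE, which includes spread between libraries, with a normal distribution, and is likely too narrow with 3 libraries per group. Limits for counts of 0 cover counting error only, and reads carry no molecular identifiers. Alternatives used DESeq2 1.42.0, limma 3.58.1 (voom, or log2(TPM + 1) and log2(TPM + 0.1) for genes with a mean of at least 0.5 TPM), other scalings and filters, the replicate number as a block, and each library left out. In a simulation with few changed genes, p-values of unchanged genes were calibrated, but the share of false calls was above the nominal level. Positions are from GENCODE M21, where 9 of 10 identifiers matched with version and Casp1 without. The genes and lists were chosen with earlier results of these data known. From each list, up to 4 changed genes with the smallest p are named, with those that went against the list; a few genes the rule names are not reported here. Figures used matplotlib 3.10.9.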

Additional observations from a re-analysis of the deposited data

How the results depend on the processing

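The count of the 10 genes that rose was 9 with RLE or upper-quartile factors, library size only, DESeq2, limma-voom, no filter and the replicate block. It was 8 with a filter of 1 CPM and with TPM values, which leave out Nlrp3, and 6 to 8 when 1 library was left out; 0 fell in any of these. Over all genes, 5513 rose and 1685 fell with library size only, 6167 and 1189 with log2(TPM + 1), and 6072 and 1175 with log2(TPM + 0.1), against 3250 and 3185; under them all genes had a median of 0.18, 0.20 and 0.25 on the log2 scale, from 0.01. Of the other pathway genes, 2 fell with each of these 3 settings and 4 to 8 when 1 library was left out, against 5. Ripk1 changed sign with library size only (0.15), log2(TPM + 1) (0.22), log2(TPM + 0.1) (0.24) and without WT/Sed replicate 3 (0.05; -0.08 to 0.05 over single libraries left out), and Irf3 with the first 3 of these (0.01, 0.09 and 0.09). Nek7 changed sign without WT/Sed replicate 2 (-0.01; range -0.01 to 0.06) and Gsdme without WT/Sed replicate 3 (-0.04; range -0.04 to 0.12). By construction of the added 1, log2(TPM + 1) gave smaller values for low genes, such as 1.54 for Casp4 and 3.17 for Zbp1. Replicate numbers gave no sign of pairing. Deviations of same-numbered libraries correlated at -0.00218 to 0.0125, and not every library correlated best with its own number. With deviations from means of 3 libraries, this cannot exclude a shared litter or day. With the replicate block 3117 genes rose and 3029 fell, and 42 and 5 of the other pathway genes. Depth limits Nlrp3 most, with 32 counts over the WT/Sed libraries.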
